A study of Homo sapiens with 8 samples.

Results

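G-quadruplexes (G4s) that were detected in both human cell lines but lay outside gene promoters are described here. They were chosen by measured values, namely the peak calls in both lines: a high-confidence K562 G4 peak was kept where it shared at least 1 bp with a high-confidence HepG2 peak and did not touch the 1 kb upstream of any annotated transcription start site (TSS). This rule gave 377 K562 intervals, 4.10% of the 9205 in the K562 list. K562 came from a chronic myelogenous leukemia. HepG2 came from a hepatocellular carcinoma. The labels name no treatment of either line. G4 ChIP-seq recovers crosslinked, sonicated and RNase A-treated chromatin with the G4-specific antibody BG4. For each line the labels list 3 libraries from the G4 pull-down and 1 from input. The deposited lists merge 8 replicates of K562 and 9 of HepG2. The paper describes 3 independent experiments per line with 2 to 3 technical replicates each, so these replicates are not all independent. Earlier K562 data were also considered there. The lists hold stretches found in at least 5 of 8 or 6 of 9 replicates (high confidence) and in at least 2 (lower confidence). They give positions on hg19 and no peak height, read count or replicate of origin. The depth behind an interval is therefore unknown, and all tests compare intervals within these lists and carry no spread between replicates.

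A G4 is a 4-stranded DNA structure in which runs of guanine pair in stacked planes. Sequences that can form one are dense around promoters of active genes, where they lie in open chromatin beside CpG islands and GC boxes. Away from promoters, open chromatin marks enhancers, alternative start sites and other regulatory elements, many of which are used in one cell type only. The comparison of common with cell-line-only peaks outside promoters therefore asks what the G4s shared by a blood and a liver line have in common there. Only the 1 kb upstream of a TSS is left out, so peaks just downstream of one remain.

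Motifs of 10 of the 131 peaks that held a complete G4 motif are printed first, to show what such motifs look like. The other 246 of the 377 held none. A G4 motif was called complete where 4 stretches of 3 or more G, parted by 1 to 7 bases each, followed one another on either strand. In each line below the first motif of an interval is given 5′ to 3′ on its G-rich strand, with the G runs in capitals. Positions are on GRCh37 (hg19) and the sequences were read from that reference assembly.
EPB41, 1.9 kb upstream, chr1:29211776-29211796, plus strand: GGGGtGGGGatGGGGttGGGG
HES1, intergenic, chr3:193859372-193859386, plus strand: GGGcGGGcGGGcGGG
EGR1, intergenic, chr5:137827787-137827811, minus strand: GGGGcggacGGGGGcGGGccGGGGG
ZBTB2, first intron, chr6:151711481-151711502, minus strand: GGGGacGGGGacaGGGaGGGGG
SP1, intergenic, chr12:53765073-53765091, plus strand: GGGctcgaGGGaGGGaGGG
KDM2B, exon of a noncoding transcript, chr12:121905109-121905129, plus strand: GGGctcGGGctcGGGctcGGG
PALM, intergenic, chr19:704111-704131, plus strand: GGGGGcGGGGtcGGGGcGGGG
CELF5, first intron, chr19:3285301-3285319, minus strand: GGGaGGGtaaGGGGcaGGG
IER2, intergenic, chr19:13273980-13273996, minus strand: GGGGcGGGcaGGGcGGG
STMN3, intron, chr20:62273202-62273224, minus strand: GGGGGcGGGGcactGGGcGGGGG
The motif near HES1, a repressor in the Notch pathway, had 15 bases, the smallest length found in the 377 intervals, and the one in KDM2B, a histone demethylase gene, repeated a single loop. The motifs printed for ZBTB2, PALM, CELF5 and STMN3 lay wholly inside a HepG2 interval as well. Those for EPB41, HES1, EGR1, SP1, KDM2B and IER2 lay in the K562 interval and were not wholly inside a HepG2 one, although the SP1 and KDM2B pairs shared another complete motif.

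Sharing between the lines was less frequent outside promoters than in them. Of all K562 high-confidence peaks, 4704 of 9205 (51.1%) shared a base with a HepG2 one. The share was 21.7% (377 of 1739, 95% Wilson interval 19.8 to 23.7) outside promoters and 58.0% (4327 of 7466, 56.8 to 59.1) in promoters. Common peaks outside promoters were 8.01% of all common peaks. Of the 1362 K562 peaks outside promoters without a high-confidence partner (K562-only below), 381 (28.0%, 25.7 to 30.4) shared a base with the lower-confidence HepG2 list, so these were absent from the stricter HepG2 list but not from HepG2. Counted in HepG2 intervals, 390 of 2668 peaks outside promoters were common (14.6%) and 2278 were HepG2-only. Wilson intervals cover the counting of intervals only. These shares were not matched for width. K562 median widths with and without a HepG2 partner were 241 and 158 bp in promoters, and 203 and 144 bp outside them.

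Each common peak usually met a single HepG2 peak at nearly the same place. The rule asked for at least 1 shared bp, so nearness of the paired intervals follows from it in part. A single partner was found for 363 of the 377 and 2 or 3 partners for the other 14. The shared stretch had a median of 139 bp (range 2 to 697) and covered a median of 78.2% of the K562 interval, and 81 intervals lay wholly inside the partner. Centres of the paired intervals were a median of 25 bp apart and at most 311 bp. The median width was 203 bp in K562 (188 to 219, 95% interval of the median, range 7 to 819) and 176 bp in HepG2 (165 to 191). The K562 interval was the wider one in 220 pairs (58.4%, 53.3 to 63.2) and the HepG2 interval in 154. The K562 interval was also wider in 62.0% (60.5 to 63.4) of the 4327 common promoter peaks, and these Wilson intervals overlap. In the lower-confidence lists the same peaks were a median of 331 bp wide in K562 and 351 bp in HepG2. The partner itself touched a promoter window for 10 of the 377.

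**Figure D1:**
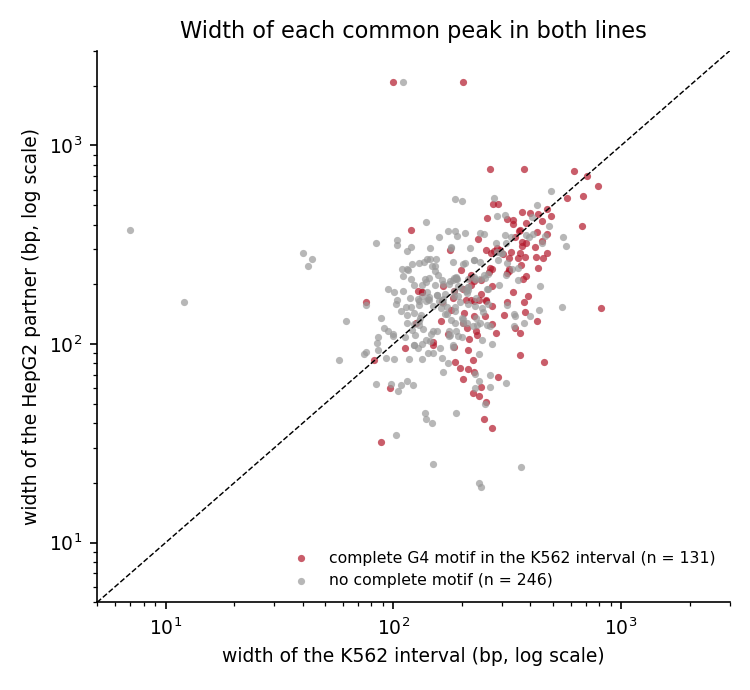
Width of the K562 interval (x axis, bp, log scale) against width of the HepG2 partner with the most shared bases (y axis, bp, log scale) for the 377 common peaks outside promoters, red where the K562 interval held a complete G4 motif (131) and grey where it did not (246). Points lie on both sides of the dashed line of equal width, red points lie mostly at larger K562 widths, and 3 points share a single HepG2 interval of 2100 bp.

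Some peaks lay close to the limits of the rule. The member nearest to an upstream window directly adjoined it (SLC29A1, a nucleoside transporter gene, 121 bp), and the next were 2 bp away (NFYA) and 6 bp away (ABCB8). On the other side, 3 common peaks counted as promoter peaks had 1, 1 and 2 bases in a window (BRD2, TRAIP and QRICH1). Within 100 bp of a window lay 27 of the 377, and 26 common promoter peaks had under 20 bp in one. The fewest bases shared with HepG2 were 2 (PPFIA3), 6 (MIEN1) and 7 (TCAF1, whose K562 interval was itself 7 bp wide). The K562-only peaks closest to a HepG2 peak were 1 bp (LCN12), 5 bp (HYCC1) and 6 bp (NCOA5) from it. Under 20 bp was shared by 7 of the 377 and at least 100 bp by 274, and 16 K562-only peaks lay within 100 bp of a HepG2 peak.

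Most common peaks outside promoters lay in introns or between genes, as did most cell-line-only peaks outside promoters. Centres fell in introns for 201 (53.3%, 48.3 to 58.3), against 54.1% of K562-only, 60.9% of HepG2-only and 32.7% of all K562 peaks. First introns held 151 (40.1%), against 36.6% of K562-only and 39.6% of HepG2-only peaks. Centres lay between genes for 125 (33.2%). Exons of noncoding transcripts held 21, 3′ untranslated regions 14, coding exons 9 and 5′ untranslated regions 7. The intergenic share was 30.5% among the K562-only peaks, an odds ratio of 1.13 (0.884 to 1.44, adjusted p = 0.415, two-sided Fisher's exact test with Benjamini-Hochberg adjustment over 12 tests, as for all adjusted values below). With promoters taken as 1 kb on both sides of a TSS, this odds ratio was 1.39 (adjusted p = 0.0344, Fisher's exact test). The nearest annotated TSS was a median of 2668 bp away (2195 to 3313) and belonged to a protein-coding gene for 251 peaks, a lncRNA gene for 76 and another kind of gene for 50. It was downstream of the peak for 134 and upstream for 243.

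Within 1 kb downstream of a TSS lay 107 of 377 centres (28.4%, 24.1 to 33.1), against 295 of 1362 K562-only centres (21.7%, 19.6 to 23.9), an odds ratio of 1.43 (1.11 to 1.86, adjusted p = 0.0106, Fisher's exact test). Over all K562 peaks, promoter peaks included, the share was 39.3%. The call was lost when the HepG2 partner also had to lie outside promoters (1.30, adjusted p = 0.0868, Fisher's exact test). The bin from over 100 to 500 bp downstream held 68 of these 107 centres, or 18.04% (14.5 to 22.2) of common peaks, 11.3% (9.73 to 13.1) of K562-only and 5.22% (4.38 to 6.22) of HepG2-only peaks. Over 5 kb from any TSS were 125 common peaks (33.2%), against 40.7% of K562-only and 50.1% of HepG2-only peaks. Peaks in IRF1, an interferon-induced transcription factor gene and chosen here after their values were seen, are examples of the downstream class. Both lay in an annotated first intron, 156 and 500 bp from the nearest annotated IRF1 TSS. They were 103 and 248 bp wide and without a complete motif. Their centres also lay in another annotated gene, and whether this TSS is the main IRF1 start was not examined.

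**Figure D2:**
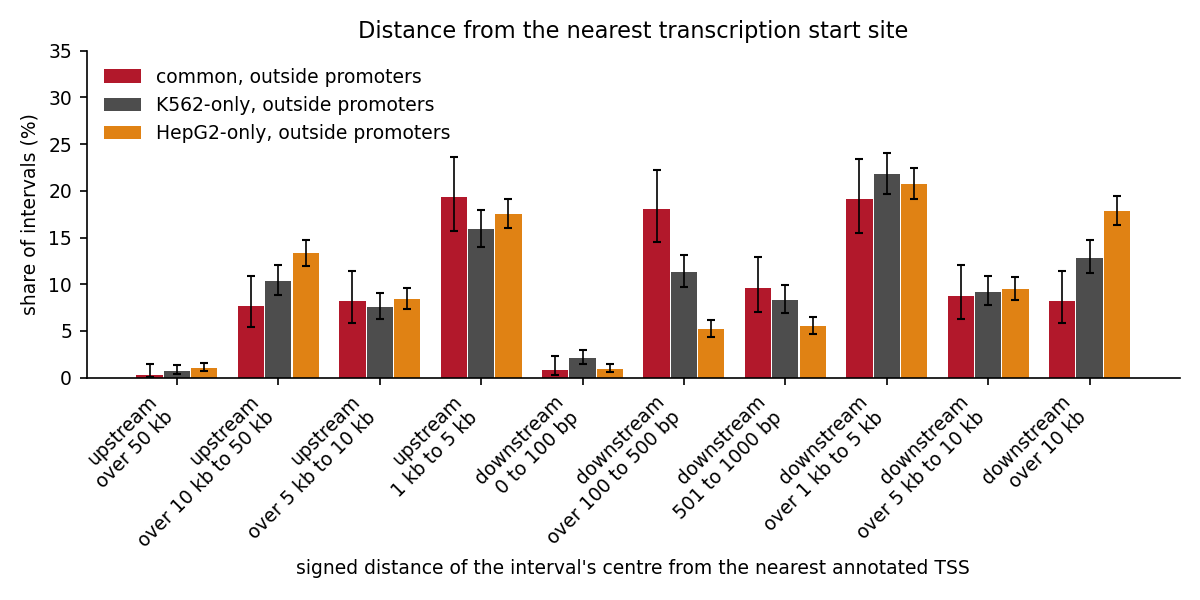
Share of intervals (y axis, %, with 95% Wilson intervals as error bars) by signed distance of the centre from the nearest TSS (x axis) for common peaks outside promoters (red, 377), K562-only (grey, 1362) and HepG2-only peaks (orange, 2278) outside promoters. The red bar stands above the others from over 100 to 500 bp downstream (18.04% against 11.3% and 5.22%), and the order is the opposite beyond 10 kb.

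The most remote peaks were intergenic or in large introns. The farthest lay 55.9 kb upstream of a lncRNA gene on chromosome 2, with a 104 bp K562 interval that held no complete motif and lay wholly inside a HepG2 interval of 334 bp. The next lay 54.5 kb from the nearest TSS and 55.9 kb upstream of the nearest coding TSS, that of ARID1B, a subunit gene of the BAF chromatin remodelling complex, and held 1 motif. The third lay 51.6 kb from a pseudogene, and its nearest coding gene was TRIM24, 107 kb away. Both first intervals are printed whole on the plus strand, with bases of complete motifs in capitals, to show that the widely spaced peaks include sequences with and without a motif.
chr2:78769079-78769182 (intergenic): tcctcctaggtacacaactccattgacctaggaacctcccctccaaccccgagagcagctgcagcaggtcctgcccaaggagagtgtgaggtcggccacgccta
chr6:157041127-157041398 (intergenic, ARID1B nearest coding gene): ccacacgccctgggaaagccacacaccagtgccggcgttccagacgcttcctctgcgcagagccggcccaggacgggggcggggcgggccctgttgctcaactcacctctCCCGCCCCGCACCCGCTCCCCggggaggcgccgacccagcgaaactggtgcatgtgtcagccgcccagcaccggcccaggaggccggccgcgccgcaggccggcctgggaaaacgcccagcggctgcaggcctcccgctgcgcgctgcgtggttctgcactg
GC content was 60.6% in the first and 74.3% in the second.

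Common peaks outside promoters were richer in GC and CpG than K562-only peaks and poorer than common promoter peaks. Their median GC content was 67.6% (66.8 to 68.6, range 51.1 to 90.9), against 65.2% (64.7 to 65.6) in K562-only and 69.8% (69.6 to 70.0) in common promoter peaks. GC at or above the K562 median of 70.3% was found in 135 of 377 (35.8%), in 375 of 1362 K562-only peaks (27.5%) and in 2012 of 4327 common promoter peaks (46.5%). By Fisher's exact test the odds ratios were 1.47 (1.15 to 1.87, adjusted p = 0.00366) against K562-only and 0.642 (0.516 to 0.799, adjusted p = 0.000127) against common promoter peaks. With at least 50% of the interval shared, the first was 1.29 (adjusted p = 0.0891, Fisher's exact test). A CpG ratio (observed over expected CpG) of at least 0.6, the usual limit for a CpG island, was found in 203 of 372 intervals of at least 50 bp (54.6%, 49.5 to 59.6) and in 420 of 1237 K562-only intervals (33.95%, 31.4 to 36.6), an odds ratio of 2.34 (1.85 to 2.96, adjusted p = 6.09e-12, Fisher's exact test). The same share was 93.4% in common promoter peaks. CpG-rich intervals were 71.4% (75 of 105) of the common peaks within 1 kb downstream of a TSS and 50% (62 of 124) of those over 5 kb from one.

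**Figure D3:**
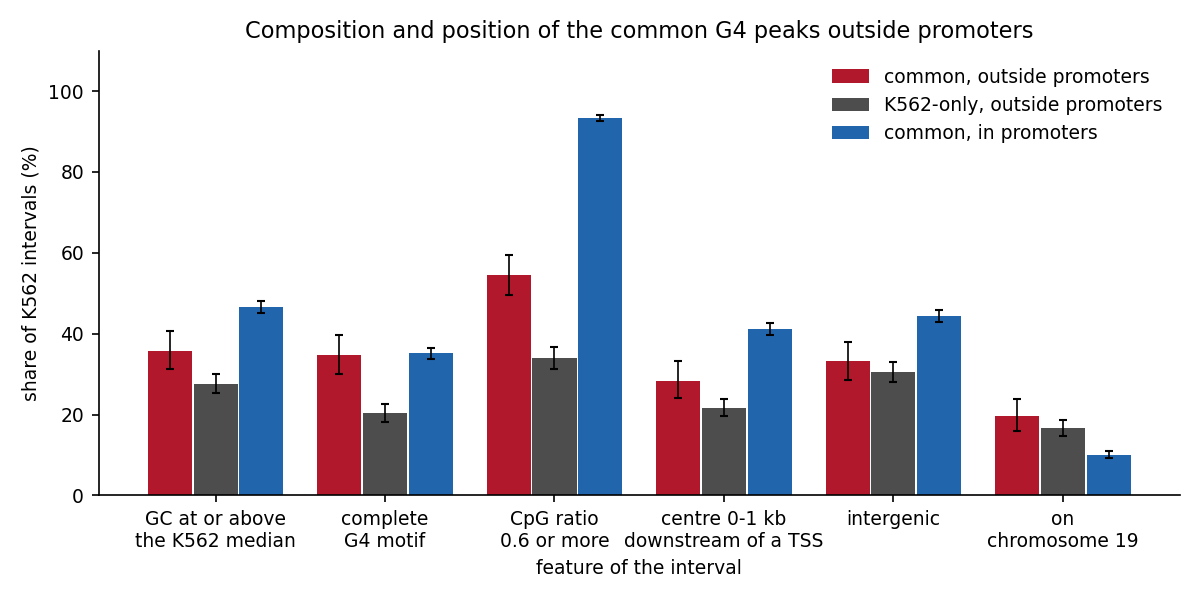
Share of K562 intervals (y axis, %, 95% Wilson intervals as error bars) with each feature (x axis) among common peaks outside promoters (red, 377), K562-only peaks outside promoters (grey, 1362) and common promoter peaks (blue, 4327), with CpG ratios for intervals of at least 50 bp. Red bars lie between grey and blue for GC (35.8%, 27.5% and 46.5%) and CpG (54.6%, 33.95% and 93.4%), and near blue for the motif (34.7% and 35.1%).

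A complete G4 motif was found in 131 of the 377 intervals (34.7%, 30.1 to 39.7), beside 32.6% of all 9205 K562 peaks, 276 of 1362 K562-only peaks outside promoters (20.3%, 18.2 to 22.5) and 1520 of 4327 common promoter peaks (35.1%, 33.7 to 36.6). By Fisher's exact test the odds ratio was 2.095 (1.63 to 2.69, adjusted p = 3.3e-08) against K562-only peaks and 0.983 (0.788 to 1.23, adjusted p = 0.9105) against common promoter peaks. The median width was 203 bp in common peaks outside promoters and 144 bp (139 to 150) in K562-only peaks. Within width classes of 50 bp the odds ratio against K562-only peaks was 1.25 (0.942 to 1.65, Mantel-Haenszel), an interval that includes 1, so the call was lost at like width. Within classes of width and GC content, an alternative chosen after seeing the data, it was 1.07 (0.788 to 1.46), and that against common promoter peaks was 1.58 (1.21 to 2.06).

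**Figure D4:**
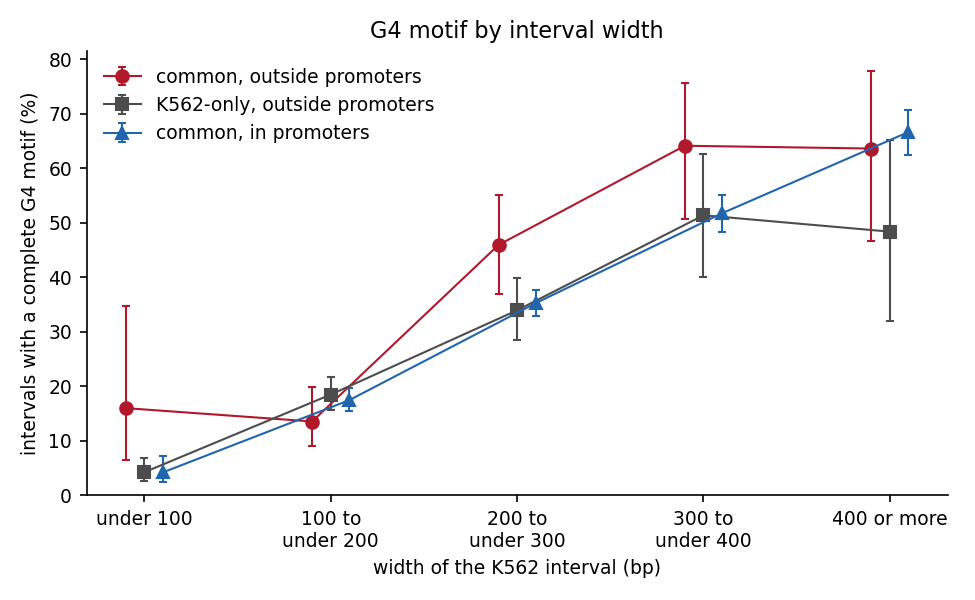
Share of K562 intervals with a complete G4 motif (y axis, %, 95% Wilson intervals) by interval width (x axis, bp) for common peaks outside promoters (red circles), K562-only peaks outside promoters (grey squares) and common promoter peaks (blue triangles). From 100 to under 200 bp to 300 to under 400 bp the share climbs in all 3 classes, in red from 13.5% to 64.2%, and the error bars of red and grey overlap in each width class.

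Of the 246 intervals without a complete motif, 69 held one with loops of up to 12 bases, 147 held 4 runs of at least 2 G, and 30 held neither. These 30 had a median GC content of 57.2% and a median width of 117 bp. Intervals with a complete motif had a median of 71.1% GC and 270 bp, and those without had 65.8% and 174.5 bp. The 131 intervals held 201 motifs with a median length of 23 bases: 89 held 1, 26 held 2, 8 held 3, 6 held 4 and 2 held 6. Both intervals of a pair held a motif in 97 cases, the K562 interval alone in 34, the HepG2 interval alone in 16 and neither in 230. A motif lay inside the shared stretch in 99. Motifs were on the plus strand of the assembly in 54, on the minus strand in 64 and on both in 13. Inside coding genes, the G-rich strand was the non-template strand in 39 of 70 intervals with motifs on a single strand (55.7%, 44.1 to 66.8, adjusted p = 0.440, exact binomial test), and in 62.7% (adjusted p = 0.0117) when promoters were drawn from protein-coding transcripts only, which raised the peaks to 668. The non-template share was 21 of 31 within 1 kb downstream of a TSS (67.7%, 50.1 to 81.4) and 18 of 39 elsewhere in genes (46.2%, 31.6 to 61.4). These Wilson intervals overlap, and the split was not tested.

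The intervals with the most motifs were intronic for the most part, as were 74 of the 131 intervals with a complete motif and 53.3% of all 377. Introns of CELF5, an RNA-binding protein gene, and of STMN3, a stathmin family gene, held 6 motifs each, in 676 bp and 398 bp. Intervals with 4 motifs lay in ZBTB2 and ZBTB7B (zinc finger repressor genes), PRSS36, CELF5 again, TRIM62 and near the lncRNA gene GASAL1. SIN3A, a corepressor scaffold gene, and PALM had 3. The TRIM62 interval is printed whole to show 4 motifs, which take 85 of 242 bases, in the first intron of this ubiquitin ligase gene, 1158 bp from the TSS. It is given on the plus strand, so the motifs of the minus strand appear as capital C runs.
chr1:33646365-33646606 (TRIM62): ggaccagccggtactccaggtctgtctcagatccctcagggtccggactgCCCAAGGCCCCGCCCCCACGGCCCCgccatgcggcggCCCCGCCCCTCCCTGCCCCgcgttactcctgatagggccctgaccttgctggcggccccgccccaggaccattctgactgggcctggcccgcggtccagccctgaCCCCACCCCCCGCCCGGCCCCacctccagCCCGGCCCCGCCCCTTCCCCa
The widest intervals were 819 bp in UNC13A (a synaptic vesicle priming gene), 793 bp in SLC38A8 (an amino acid transporter gene) and 712 bp upstream of PALM. They were followed by ZBTB2 (679 bp), CELF5 (676), SDR42E2 (622), MAMSTR (581), PIEZO1 (574), CDH15 (557) and an intergenic peak nearest ZNF648 (553). The HepG2 partner was nearly as wide at PALM (702 bp) but 152 bp wide at UNC13A. Of these 10, PIEZO1, CDH15 and ZNF648 held no complete motif.

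Short letter patterns of known binding sites were counted in each class. Each pattern was searched on both strands and matches are descriptions only. The classes differ in median width (203, 144 and 241 bp for common outside promoters, K562-only outside promoters and common promoter peaks), so odds ratios within width classes of 50 bp (Mantel-Haenszel, chosen after seeing the data) are given beside the shares. The classes also differ in median GC content (67.6%, 65.2% and 69.8%), for which no letter pattern was matched. This limit weighs most on patterns made of G and C, such as the GC box. GGGCGG, the GC box bound by SP and KLF factors, was in 240 of 377 common peaks outside promoters (63.7%, 58.7 to 68.4), 38.9% (36.4 to 41.5) of K562-only, 80.0% of common promoter and 69.6% of all K562 peaks. Against K562-only peaks its odds ratio was 2.75 (2.17 to 3.48) and, within width classes, 1.80 (1.39 to 2.33). It can overlap a G4 motif, and 118 of the 240 also held one. TGANTCA, the AP-1 site bound by FOS and JUN proteins, was in 45 (11.9%, 9.04 to 15.6), in 13.1% of K562-only peaks and in 2.98% (2.51 to 3.53) of common promoter peaks, with 5.12% over all K562 peaks. Within width classes its odds ratio was 4.91 (3.40 to 7.09) against common promoter peaks and 0.725 (0.502 to 1.05) against K562-only peaks. AGATAA, the site of GATA factors that direct erythroid genes, was in 14 (3.71%, 2.22 to 6.14), against 13.8% (12.1 to 15.7) of K562-only peaks, 1.87% of common promoter peaks and 3.93% of all. The odds ratio against K562-only peaks was 0.241 (0.138 to 0.420) and, within width classes, 0.176 (0.0983 to 0.314). In HepG2 the same letters were in 3.59% (2.15 to 5.93) of common intervals outside promoters and 6.19% (5.27 to 7.25) of HepG2-only intervals. CCAAT, the NF-Y site, was in 99 (26.3%, 22.1 to 30.9) against 13.1% of K562-only, 46.0% of common promoter and 30.6% of all peaks, with an odds ratio against K562-only peaks of 2.35 (1.78 to 3.11) and, within width classes, 1.65 (1.23 to 2.22). The NRF1 core GCATGCGC was in 17 (4.51%), in 1.25% of K562-only, 7.09% of common promoter and 4.91% of all peaks, with an odds ratio against K562-only peaks of 3.74 (1.89 to 7.39) and, within width classes, 3.13 (1.47 to 6.68). TATAAA was in 5 (1.33%, 1.30% of all). TTAGGGTTA, part of the telomere repeat, was in 0 of 377, which allows a share of up to 1.01% (Wilson).

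AP-1 letters were less frequent near start sites, in 4 of 107 intervals within 1 kb downstream of a TSS (3.74%, 1.46 to 9.22), 23 of 145 others within 5 kb (15.9%, 10.8 to 22.7) and 18 of 125 beyond 5 kb (14.4%, 9.31 to 21.6). The GC box was in 79 of 107 (73.8%), 90 of 145 (62.1%) and 71 of 125 (56.8%). An interval with both a G4 motif and AP-1 letters lay 1908 bp upstream of EPB41, which encodes protein 4.1 of the red cell membrane skeleton. It is printed to show their arrangement, with the G4 motif at its 3′ end in capitals and 2 matches to TGANTCA in lower case.
chr1:29211594-29211796 (intergenic, EPB41): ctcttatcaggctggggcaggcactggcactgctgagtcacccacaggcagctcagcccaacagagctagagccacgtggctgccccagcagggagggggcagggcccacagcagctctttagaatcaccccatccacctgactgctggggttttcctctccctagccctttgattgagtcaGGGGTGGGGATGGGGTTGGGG
The HepG2 partner of this interval was 67 bp wide and did not reach the motif.

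The nearest coding TSS was a median of 5574 bp away (4531 to 7231), against 8234.5 bp (7391 to 9297) for K562-only peaks. The 377 peaks had 345 different nearest coding genes, 1.74% of 19807, and K562-only peaks had 1068 (5.39%). Both sets named 70 genes, 20.3% of the first and 6.55% of the second. A peak lay inside its nearest coding gene in 181 cases. Being nearest to a gene does not show that a peak acts on it.

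Immediate early and stress genes, which respond to signals such as growth factors or stress, were the list with most peaks. Of its 50 genes, 12 (24%) were nearest to 14 common peaks, and 17 (34%) to 24 K562-only peaks. These shares stand beside 1.74% and 5.39% of all coding genes, and no test was made. The gene lists were chosen with earlier results of these data known. The genes were JUN, JUNB and JUND (AP-1 subunits), EGR1 and ID1 with 2 peaks each, ID3, HES1, IER2, DUSP1, DDIT4, TRIB3 and PIM3. Distances ranged from 1278 bp (JUND) and 1313 bp (JUNB) to 115 kb (JUN), with a median of 8261.5 bp, and 7 of the 14 held a complete motif. The EGR1 peaks lay 1281 bp upstream and 26.7 kb downstream, with K562 widths of 359 and 237 bp and HepG2 widths of 114 and 55 bp. At ID1, an inhibitor of basic helix-loop-helix factors, the peaks lay 5510 and 7738 bp downstream and neither held a motif.

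SP and KLF factors, which bind GC boxes, had 5 common peaks at 4 of 26 genes (15.4%): KLF16 with 2, KLF15, KLF10 and SP1. A K562-only peak was nearest to 7 of these genes (26.9%). Chromatin regulators had 5 at 5 of 80 genes (6.25%), and 9 (11.25%) had a K562-only peak. K562-only peaks had more nearest genes in all, 5.39% against 1.74% of coding genes. The peak at SMARCB1, a core BAF subunit gene, lay 98 bp downstream of a TSS with 82.4% GC and no complete motif, and the one at KDM2B had 84.3% GC and 3 motifs in 383 bp. The others were nearest ARID1B, KMT2E and CHD7. Erythroid genes had 3 at 3 of 31 genes (9.68%; EPB41, FTH1 of the iron store ferritin, and SLC4A1, the anion exchanger of red cells), against 9 genes (29.03%) with a K562-only peak. Liver secreted and metabolic genes had 2, both at SREBF1, a regulator of lipid synthesis, 633 bp downstream and 3231 bp upstream of its TSS. Blood lineage transcription factors had 0 of 29 genes with a common peak and 9 (31.0%) with a K562-only peak. Hepatocyte transcription factors (0 of 26), histones (0 of 28), splicing factors (0 of 47), HOX genes (0 of 39) and snoRNA host genes (0 of 7 annotated as coding) had none. These counts of 0 stand beside 1.74% of all coding genes. Ribosomal protein genes had 1 of 79 (RPS24, 268 kb away) and the classic promoter G4 genes 1 of 20 (MYC, 819 kb away).

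A few genes had several peaks. ERCC1, a nucleotide excision repair gene, was nearest to 3 peaks, with widths of 162, 149 and 231 bp and 1 motif each. They lay 7157 and 6288 bp downstream and 5138 bp upstream of its nearest coding TSS. All 3 centres fell in a first intron annotated to ERCC1, the upstream one included. NFIC, a nuclear factor I gene, was nearest by coding TSS to the 3 peaks that lay in introns of CELF5, with 4, 2 and 6 motifs. PRR36 and ZBTB7B had 3 each, and 22 further genes had 2. Within 1 kb of another common peak lay 23 of the 377. The 3 peaks nearest TPTE were 1164 kb or more from its TSS and lay 138, 401 and 612 bp downstream of the microRNA gene MIR3687 on chromosome 21. They shared a single HepG2 interval of 2100 bp that touched a promoter window, and all their 50-base words occurred again in the assembly, up to 3 copies in all. Their GC contents were 81.8%, 90.9% and 86.0%, and the second is printed as the interval with the highest GC of the 377, in which no complete motif was found.
chr21:9826549-9826658 (MIR3687): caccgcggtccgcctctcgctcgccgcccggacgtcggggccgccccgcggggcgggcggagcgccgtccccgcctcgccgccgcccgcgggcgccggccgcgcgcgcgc
A repeated 50-base word was present in 14 of the 377 intervals (3.71%) and in 2.64% of K562-only peaks.

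Common peaks outside promoters lay beside a K562 promoter peak, that is in the same lower-confidence interval or within 500 bp, in 38 cases (10.1%, 7.43 to 13.5) against 88 of 1362 K562-only peaks (6.46%), an odds ratio of 1.62 (1.09 to 2.42, adjusted p = 0.0322, Fisher's exact test). This call was not kept under 7 of the 16 alternatives tried, among them a HepG2 partner outside promoters (1.29, adjusted p = 0.327) and leaving out chromosome 19 (1.62, adjusted p = 0.0572, Fisher's exact test in each). The median distance to the nearest promoter peak was 14879 bp.

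Chromosome 19, which is dense in genes and GC, held 74 of the 377 peaks (19.6%, 15.9 to 23.9), against 16.7% (14.8 to 18.7) of K562-only, 10.1% (9.24 to 11.03) of common promoter and 11.4% of all K562 peaks. The Wilson intervals of common and K562-only peaks outside promoters overlap. The share of HepG2-only peaks was 6.32% (5.39 to 7.40). Chromosomes 1, 17 and 16 followed with 37, 32 and 31, and X held 1.

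**Figure D5:**
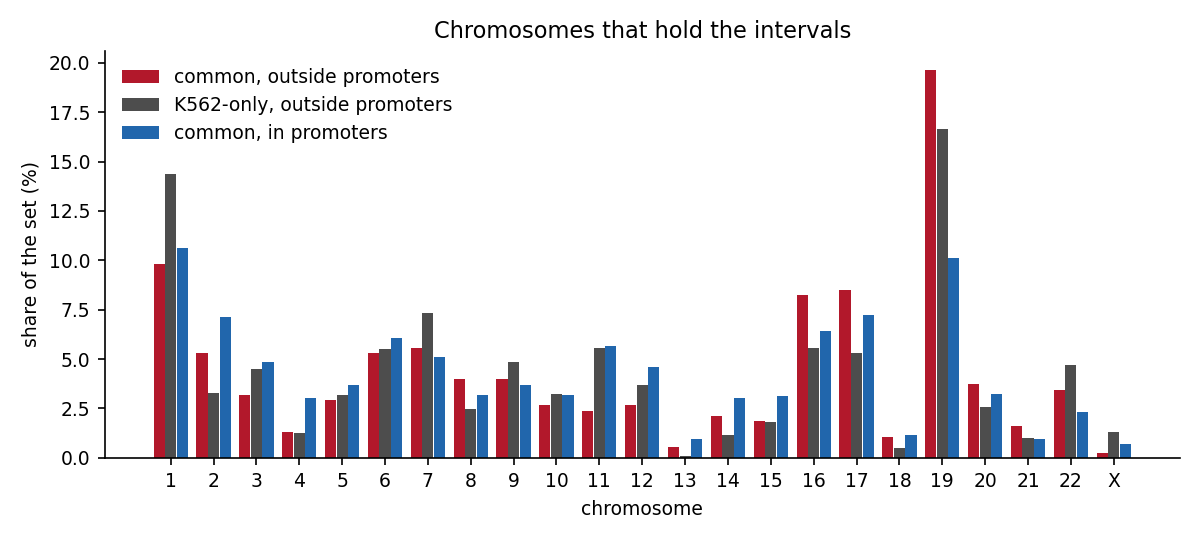
Share of each class of K562 intervals (y axis, %) by chromosome (x axis) for common peaks outside promoters (red, 377), K562-only peaks outside promoters (grey, 1362) and common promoter peaks (blue, 4327). Red stands highest on chromosome 19 at 19.6%, where grey is 16.7% and blue 10.1%.

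Seen from HepG2, the same contrasts were larger. GC at or above the HepG2 median of 65.2% was found in 254 of 390 common peaks outside promoters (65.1%) and in 325 of 2278 HepG2-only peaks (14.3%), an odds ratio of 11.2 (8.84 to 14.3, adjusted p = 4.58e-92, Fisher's exact test). A complete motif was in 112 (28.7%) against 185 (8.12%), an odds ratio of 4.56 (3.49 to 5.95, adjusted p = 1.6e-25, Fisher's exact test), which was 1.03 (0.711 to 1.48) within classes of width and GC. Centres lay within 1 kb downstream of a TSS in 110 (28.2%) against 266 (11.7%), an odds ratio of 2.97 (2.30 to 3.83, adjusted p = 5.33e-15, Fisher's exact test). Median GC of the common peaks was close in both lines, 67.6% in K562 and 67.4% in HepG2, as was the share within 1 kb downstream of a TSS (28.4% and 28.2%). The HepG2 intervals were narrower (median 167 bp) and fewer held a complete motif (28.7% against 34.7%) or a GC box (57.2% against 63.7%). Median GC was 57.5% (57.1 to 57.9) in HepG2-only and 65.2% in K562-only peaks. The GC box was in 57.2% of common HepG2 intervals and 13.8% of HepG2-only intervals, shares matched for neither width nor GC content.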

How the data were processed

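G4 ChIP-seq was measured in K562 and HepG2, and for each line the labels list 3 pull-down libraries and 1 from input. The authors used cutadapt for trimming and BWA for alignment (hg19), discarded duplicates, called peaks per replicate with MACS2 (q-value under 0.05) and merged replicates with bedtools. The 4 deposited lists hold the start and end of each interval in bp. Depth and replicate values are not given there, so p-values compare intervals, which are not biological replicates.

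From there, TSSs, exons and introns came from GENCODE version 44 lifted to GRCh37 (the study used version 19). Members and lists were chosen with earlier results of these data known. The named regions were the 10 widest, the 10 with most motifs, the 10 farthest from a TSS, genes nearest 3 or more peaks, peaks nearest listed genes, and those at the limits of the rule. Intervals were compared with two-sided Fisher's exact tests, an exact binomial test for strand and Mantel-Haenszel odds ratios as an alternative. Mitochondrial intervals (29 in HepG2) were left out of sequence measures. Repeats were not tested, since the reference used marks none. In their place, 50-base words occurring again in the assembly were counted. The alternatives were other promoter windows, TSS sets, overlaps, widths, merging, lists and motifs. Functions were tested on simulated data. Python 3.11.15, scipy 1.17.1, pysam 0.24.0 and samtools 1.23.1 were used.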

Additional observations from a re-analysis of the deposited data

Results flagged for a closer look

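The same contrast, common against cell-line-only peaks outside promoters, gave different odds ratios in the 2 lines. The HepG2 odds ratio was 7.64 times the K562 one for GC (5.44 to 10.7), 2.18 times for the complete motif (1.51 to 3.13) and 2.07 times for a centre within 1 kb downstream of a TSS (1.44 to 2.98). The 95% intervals come from a normal approximation of the log odds ratios, and each lies above 1. The common peaks are nearly the same loci in both contrasts, whereas the test treats the odds ratios as independent. With GC cut at the K562 median in both lines, the ratio was 8.12 (5.57 to 11.8): 35.1% of common HepG2 intervals and 4.35% of HepG2-only intervals reached it, beside 35.8% and 27.5% in K562. When a lower-confidence interval sufficed as partner, the odds ratios were 7.77 in HepG2 and 2.00 in K562 for GC, 3.40 and 1.51 for the motif, and 2.94 and 1.595 for TSS distance, so the GC odds ratios lay closer together than with high-confidence partners (11.2 and 1.47). With cell-line-only peaks limited to those outside the other line's lower-confidence list, they were 14.02 and 1.86 for GC. Without chromosomes 2, 16, 17 and 20, which held 35.7% of HepG2-only and 25.6% of common HepG2 peaks outside promoters, all 3 HepG2 calls were kept. The ratio between the lines was not recomputed without these chromosomes. The part of chromosome copy number and depth was not tested.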

How the results depend on the processing

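Of 218 values recomputed, 199 were counted as the same: they kept their side of the threshold (counts within 1.5 times). A change of direction with neither value past the threshold was included among these, as with a non-template share of 47.4%. The number of common peaks outside promoters was 668 with coding TSSs only and 758 with a partner from the lower-confidence list, and 262 to 440 otherwise. The GC odds ratio against K562-only peaks lost its call with at least 50% of the K562 interval shared (1.29). The motif odds ratio lost its call within width classes (1.25) and within width and GC classes (1.07, and 1.03 in HepG2), and that against common promoter peaks was 0.709 with lower-confidence partners and 1.58 within width and GC classes. The TSS odds ratio was 1.30 with partners outside promoters. The intergenic odds ratio was 1.39 with 1 kb on both sides of a TSS and 1.25 with lower-confidence partners, both past the threshold. The odds ratio for lying beside a promoter peak lost its call with 2 kb windows (1.61), 50% of the K562 interval (1.49) or of both (1.19) shared, partners outside promoters (1.29), without chromosome 19 (1.62) or without repeated words (1.42), and was 0.802 with 1 kb on both sides, where 2 such peaks remained. The non-template share was 62.7% with coding TSSs only. The causes were not tested. The GC contrast with common promoter peaks, the CpG contrast and the HepG2 contrasts of GC and TSS distance kept their calls under each alternative. Leaving out a replicate and a paired analysis were not possible, because the lists hold no values per replicate. The planned repeat comparison was not run.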
